A study of Citrullus lanatus with 4 samples.

Results

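The genes described here are 3 watermelon (Citrullus lanatus) genes. Cla002276 and Cla001671 are annotated as GPI-anchored proteins, and Cla000694 as fasciclin-like arabinogalactan protein 18. They are not the whole of these families. The study also names COBRA-like proteins, arabinogalactan peptides and another fasciclin-like protein among its differing genes, and these are not described here. The 3 genes were taken by their gene IDs, and all are among the 23440 genes of the count table. RNA-seq was performed on 4 libraries, 1 for each condition, from floral buds and flowers of 2 near-isogenic lines, the male fertile DAH3615 and the genic male sterile DAH3615-MS. The libraries are called fertile or sterile buds and flowers after their line. Both lines came from a population segregating for the ms-1 locus, in which DAH3615 is heterozygous (Msms) and DAH3615-MS is homozygous recessive (msms), so they share the backcross background. Buds of DAH3615-MS were shorter than those of DAH3615 when collected on the day before flowering. Flowers were taken on their first day, and those of DAH3615-MS had defective stamens and no pollen. Floral buds came from higher nodes than flowers, so organ and node position cannot be told apart. How many plants went into each library is not stated in the sources used.

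A glycosylphosphatidylinositol (GPI) anchor is a lipid that holds a protein on the outer face of the plasma membrane. It is attached in the endoplasmic reticulum by the GPI transamidase, which replaces a signal at the end of the chain. Arabinogalactan proteins are hydroxyproline-rich proteins of the cell surface and wall that carry large sugar chains of arabinose and galactose, and many of them hold a GPI anchor. The fasciclin-like members also have a fasciclin domain, a fold known from cell adhesion proteins. In flowers, members of these families are known from pollen walls, pollen tubes and the tissues through which the tubes grow. The names of the 3 genes were transferred from similar proteins of other species: maize for Cla002276, Arabidopsis for Cla001671 and cotton for Cla000694.

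The counts on genes summed to between 5239032 and 6315796 per library, and 19732 genes had at least 1 count. Values are given as raw counts and as CPM, the count per 1000000 counts of a library after scaling with TMM factors between 0.935 and 1.06. Intervals of counts, CPM and ratios of libraries are exact 95% Poisson or binomial intervals, which cover counting error only. The labelled tissue was checked with 3 MADS-box genes, a family of floral organ regulators. Cla000691 had between 1414 and 3019 counts in every library, while Cla002356 and Cla002628 had 16 counts or fewer. Of these 3 genes, 0 were called between lines or between organs. Markers of green tissue were present throughout, with a summed level over 3 genes between 711 and 978 CPM. Of 6 genes named for pollen, 2 were called higher in DAH3615, where 3.92% of all genes were. The summed level of all 6 was 585 CPM in fertile buds and 566 in fertile flowers, against 25.7 in sterile buds and 6.45 in sterile flowers. In a bulk sample, fewer pollen or anther cells and less RNA per cell cannot be told apart.

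The first of the GPI-anchored protein genes, Cla002276, was detected in the fertile line alone. It lies on the minus strand of chromosome 7 from 1336400 to 1337970 (genome version 1). The fertile buds gave 125 counts, the fertile flowers 314, and both sterile libraries 0. Its level was 22.8 CPM (19.0 to 27.2) in fertile buds and 53.2 CPM (47.5 to 59.4) in fertile flowers. The 0 counts allow up to 0.488 CPM in sterile buds and up to 0.553 CPM in flowers, taking 3 counts per library as the floor. Within each organ the counting intervals of the lines, each from a single library, did not overlap. With that floor the fertile line exceeded the sterile line at least 46.8-fold in buds, and the flowers of the fertile line were at least 96.1-fold higher. These bounds hold for the floor only and leave out the counting error of the fertile counts.

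**Figure D1:**
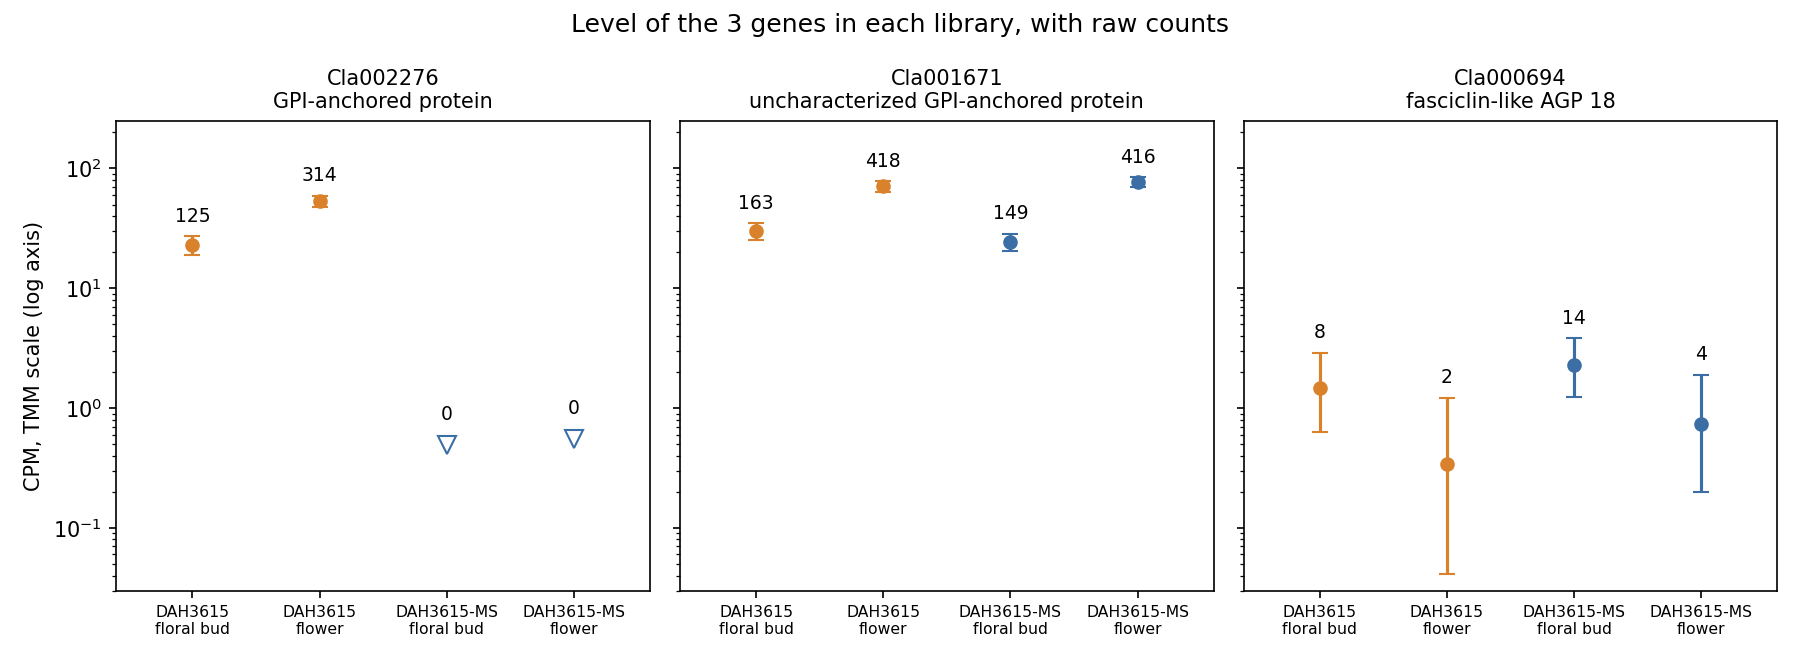
Level of the 3 genes in each library, in CPM on a log axis, with the raw count above each point, 95% Poisson intervals as bars, DAH3615 in orange, DAH3615-MS in blue and open triangles at the floor of 3 counts for counts of 0. Cla002276 has counts of 125 and 314 in DAH3615 and 0 in both libraries of DAH3615-MS, Cla001671 is higher in the flowers of both lines, and Cla000694 stays at 14 counts or fewer.

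All 19732 genes entered edgeR's quasi-likelihood test of a model with additive terms for line and organ, and an adjusted p under 0.01 was the threshold. Of the 3 genes, 1 was called, Cla002276, higher in DAH3615 (adjusted p = 4.97e-05). The test called 3.95% of all genes between the lines and 3.92% of them as higher in DAH3615. Exact tests in edgeR between the 2 libraries of an organ also called Cla002276 alone among the 3, with adjusted p = 1.34e-17 in floral buds and adjusted p = 6.26e-27 in flowers. Those tests called 5.04% of all genes in floral buds and 4.85% in flowers, and they compare the libraries, not the lines. What the additive model has as residual is how far the line effect of floral buds departs from that of flowers. No p therefore carries the spread between plants. For Cla002276, at 0 counts in both DAH3615-MS libraries, that departure cannot be seen. Its p from this model rests on the spread shared from other genes. The call was lost in DESeq2 (adjusted p = 0.199) and in edgeR's model without an organ term (adjusted p = 0.0508), which called 0 genes in all. It was also lost in models of line alone without the DAH3615-MS floral bud library or the DAH3615-MS flower library. Those models leave DAH3615-MS a single library, so they cannot decide the call. Models of line alone without a DAH3615 library leave DAH3615 a single library and cannot decide it either. Of the 6 pollen-named genes, 2 were also called higher in DAH3615. Cla002347, annotated as pollen allergen Phl p 11, alone gave 369 of the 585 CPM summed in fertile buds and 528 of the 566 CPM in fertile flowers. The other 4 were not called, and 1 of them, Cla002155, had more counts in sterile than in fertile buds (45 against 18). The part of pollen RNA in the difference of Cla002276 was not tested.

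The second gene, Cla001671, was expressed at similar levels in both lines and was higher in flowers than in floral buds. It is on the plus strand of chromosome 2 from 20442350 to 20443353 and is named after the uncharacterized Arabidopsis protein At4g28100. Counts were 163 in fertile buds, 149 in sterile buds, 418 in fertile flowers and 416 in sterile flowers. The corresponding levels were 29.8 CPM (25.4 to 34.7), 24.3 (20.5 to 28.5), 70.8 (64.2 to 77.9) and 76.7 (69.5 to 84.4). Both flower libraries were above both bud libraries, and within an organ the intervals of the lines overlapped.

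Between the lines, the fitted log2 fold change of Cla001671 for DAH3615 over DAH3615-MS was 0.08 (SE 0.19, 95% interval -0.37 to 0.52, adjusted p = 0.885 from the quasi-likelihood test). The interval leaves room for a level in DAH3615 from 0.773 to 1.44 times that in DAH3615-MS. Within the organs the ratio was 1.23 (0.977 to 1.54) in floral buds and 0.923 (0.804 to 1.06) in flowers. The ratios thus lay on opposite sides of 1, and the sign of the pooled value was negative when libraries were scaled by their totals alone. That scaling moved the median log2 ratio of all genes from 0.0067 to -0.13.

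Between organs, Cla001671 rose from floral bud to flower by a fitted log2 fold change of 1.45 (SE 0.19, 95% interval 1.0 to 1.91, adjusted p = 0.00185, edgeR's quasi-likelihood test of the organ term). It was the 1 gene of the 3 that this test called, and the test called 15.2% of all genes, with 7.59% of all genes higher in flowers. The flower library had 2.38 times the floral bud level in DAH3615 (1.98 to 2.87) and 3.16 times in DAH3615-MS (2.62 to 3.84). Exact tests between the organs called Cla001671 in both lines, with adjusted p = 0.0051 in DAH3615 and adjusted p = 7.45e-05 in DAH3615-MS, and no other of the 3 genes. Both calls were lost with the biological coefficient of variation set to 0.4 (adjusted p = 0.961 and adjusted p = 0.529). At the trended dispersion these tests called 11.1% of all genes in DAH3615 and 14.1% in DAH3615-MS. The rise in DAH3615 was 0.751 times that in DAH3615-MS (0.574 to 0.983, counting error only), a difference that has no replicate check. In models of organ alone with any 1 of the 4 libraries left out, the rise stayed between 1.31 and 1.60 on the log2 scale but was not called. Such a model leaves 1 organ with a single library, so it cannot decide the call. Of the 3 green tissue genes, 1 was called between organs, the chlorophyll a-b binding protein gene Cla001764, which rose in flowers (log2 fold change 1.19, adjusted p = 0.00696, quasi-likelihood test). The others were not called, with log2 fold changes of 0.59 for Cla000513 and -0.26 for Cla001790, which encodes a photosystem II protein. The part of tissue composition in the organ difference was not tested.

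**Figure D2:**
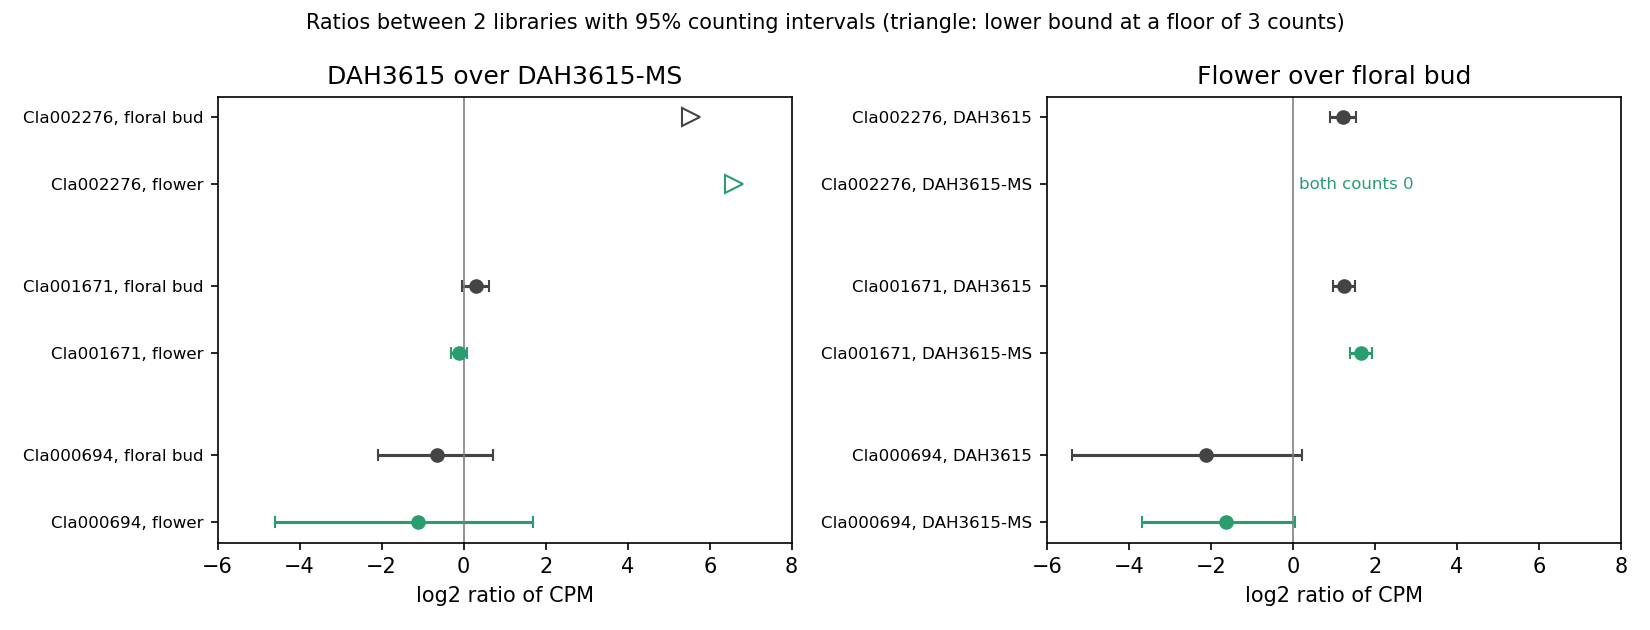
Ratios between 2 libraries on a log2 scale for each gene, DAH3615 over DAH3615-MS in floral buds (grey) and flowers (green) on the left and flower over floral bud in DAH3615 (grey) and DAH3615-MS (green) on the right, with 95% counting intervals and open triangles for lower bounds at a floor of 3 counts. With that floor, Cla002276 is at least 46.8-fold higher in DAH3615, leaving out the counting error of the fertile counts. The line ratios of Cla001671 lie near 0 on the log2 scale while its organ ratios are 2.38 and 3.16. The intervals of Cla000694 are wide.

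Cla002276 was also higher in the flower than in the floral bud within DAH3615. The flower library had 2.33 times the floral bud level (1.89 to 2.89), a ratio close to the 2.38 of Cla001671 in the same libraries. The difference was not called between these libraries (exact test in edgeR, adjusted p = 0.0161) or in the additive model (log2 fold change 1.21, SE 0.30, quasi-likelihood test, adjusted p = 0.0277), although the likelihood ratio test of the same model called it (adjusted p = 0.00752). As the gene was at 0 in DAH3615-MS, the additive value rests on the DAH3615 libraries, and no organ ratio can be given for the sterile line.

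The fasciclin-like arabinogalactan protein gene Cla000694 was near the limit of detection in every library. It lies on the plus strand of chromosome 0, which collects sequence without an assigned chromosome, from 6098982 to 6100058. Counts were 8 in fertile buds, 2 in fertile flowers, 14 in sterile buds and 4 in sterile flowers. These counts correspond to 1.46 CPM (0.631 to 2.88), 0.339 (0.0410 to 1.22), 2.28 (1.25 to 3.82) and 0.737 (0.201 to 1.89). The floral bud count was the higher of the organs in each line, and the DAH3615-MS count was the higher of the lines in each organ, with overlapping intervals in all 4 comparisons.

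No difference of Cla000694 passed the test. Its log2 fold change was -0.76 for DAH3615 over DAH3615-MS (SE 0.73, 95% interval -2.46 to 0.94, quasi-likelihood test, adjusted p = 0.695). For flower over floral bud it was -1.77 (SE 0.76, 95% interval -3.54 to -0.0076, adjusted p = 0.126), so the interval of the single gene lies below 0 but the value does not pass the adjustment over 19732 genes. The ratio of flower to floral bud was 0.232 (0.0240 to 1.16) in DAH3615 and 0.324 (0.0776 to 1.03) in DAH3615-MS. These values rest on 28 counts over the 4 libraries.

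Levels of different genes were compared per kb of the gene span in the count table, which is 1571 bp for Cla002276, 1004 bp for Cla001671 and 1077 bp for Cla000694. Introns, where present, are part of that span. In DAH3615 the order was Cla001671, Cla002276, Cla000694 in both organs. In floral buds the levels were 29.7 CPM per kb (25.3 to 34.6), 14.5 (12.1 to 17.3) and 1.36 (0.586 to 2.67), and neighbours in this order did not overlap. In flowers they were 70.5, 33.8 and 0.314 CPM per kb, again without overlap. In DAH3615-MS, Cla001671 was again highest with 24.2 and 76.4 CPM per kb in floral buds and flowers. Cla000694 followed with 2.12 and 0.685, and Cla002276 was at 0. In sterile flowers the interval of Cla000694 (0.187 to 1.75) reached below the floor of Cla002276 (0.352), so their order there is not resolved.

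Against all tested genes of a library, Cla001671 was high, with 83.7% of genes below it in fertile buds, 82.8% in sterile buds, 93.0% in fertile flowers and 95.3% in sterile flowers on the per-kb scale. Cla002276 lay above 70.4% of genes in fertile buds and above 85.2% in fertile flowers. Cla000694 lay above 11.3% to 31.1% of genes.

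**Figure D3:**
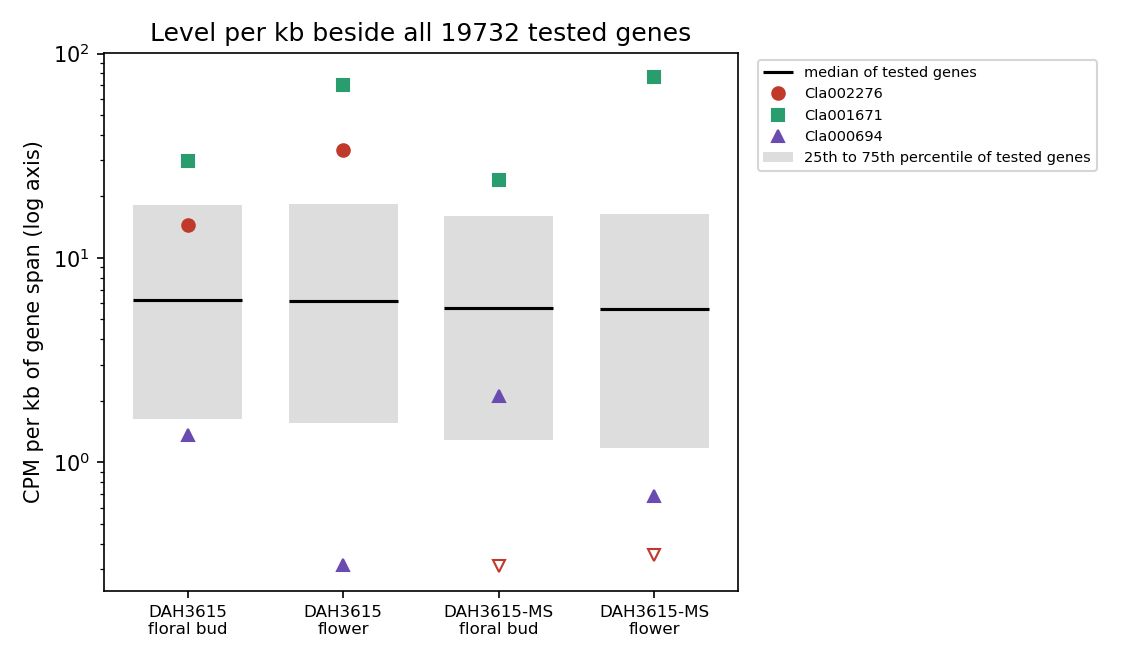
CPM per kb of gene span on a log axis for the 3 genes in each library, over the interquartile range (grey) and the median (line) of the 19732 tested genes, with open triangles at the floor of 3 counts for the 0 counts of Cla002276. Cla001671 is above the grey range in all 4 libraries, Cla002276 only in fertile flowers, and Cla000694 lies below the range except in DAH3615-MS floral buds.

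Other genes of the cell surface were read from 2 lists chosen by description, GPI attachment with related families (5 genes) and hydroxyproline-rich or extensin-type wall proteins (11 genes). All 16 had counts, as did every described gene that could have been listed. In the first list, 1 gene was called higher in DAH3615 (3.92% of all genes were), 0 were lower and 4 were not called, with a median log2 fold change of 0.04 against 0.0067 over all genes. The GPI-anchor transamidase gene Cla002987, whose product attaches the anchor, had 104 counts in fertile buds and 103 in fertile flowers, with 133 and 134 in the sterile ones. Its log2 fold change was -0.34 between lines (SE 0.21, adjusted p = 0.499) and 0.04 between organs (SE 0.21, adjusted p = 0.917), neither of them called by the quasi-likelihood test.

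The gene of that list called between lines was Cla002146, a non-specific lipid-transfer protein, a family of small secreted lipid carriers. It had 326 counts in fertile buds, 18 in fertile flowers and 1 in each library of DAH3615-MS. The ratio of the lines was 366 in floral buds (65.2 to 14500) and 16.5 in flowers (2.61 to 689), with adjusted p = 0.000255 from the quasi-likelihood test. Within the fertile line its flower level was 0.0512 times the floral bud level (0.0299 to 0.0822), whereas that of Cla002276 was 2.33 times. The other lipid-transfer protein gene, Cla003174, had between 1140 and 1964 counts and a log2 fold change of 0.03 between lines (adjusted p = 0.962). The early nodulin-55-1 gene Cla000886, related to plant blue copper proteins, had 9 counts or fewer.

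Between organs, 2 genes of this list fell from floral bud to flower and 0 rose, where 15.2% of all genes were called and 7.59% rose. Besides Cla002146 this was Cla000342, described as a beta-1,6-N-acetylglucosaminyltransferase, with 60 counts in fertile and 66 in sterile buds and 18 and 16 in the flowers (log2 fold change -1.85, SE 0.32, adjusted p = 0.00484). The median organ difference of the list was -0.33, against 0.0045 over all genes.

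Among the 11 hydroxyproline-rich and extensin-type genes, 2 were called higher in DAH3615 (3.92% of all genes were), 0 were lower and 9 were not called. Their median log2 fold change between lines was 0.13, against 0.0067 over all genes. Cla002040, described as a late embryogenesis abundant hydroxyproline-rich glycoprotein, had 40 counts in fertile buds and 85 in fertile flowers, and 0 and 1 in the sterile ones (adjusted p = 0.000472, quasi-likelihood test). The fertile line was at least 15.0-fold higher in buds and 78.1 times as high in flowers (13.6 to 3119). This gene was like Cla002276 in having its highest level in the flower of DAH3615. Of all genes called higher in DAH3615, 66.6% had a higher flower than floral bud level in that line. Cla003043, of the pollen Ole e 1 allergen and extensin family, had 1142 counts in fertile buds and 170 in fertile flowers, and 108 and 8 in the sterile ones (log2 fold change 3.76, SE 0.24, adjusted p = 4.39e-05). Cla003043 is also 1 of the 6 pollen-named genes.

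Between organs, 1 gene of the 11 rose, 2 fell and 8 were not called, where 15.2% of all genes were called. The median organ difference of the list was 0.42 on the log2 scale, against 0.0045 over all genes. Cla002869, of the hydroxyproline-rich glycoprotein family, rose like Cla001671, from 106 to 249 counts in DAH3615 and from 200 to 333 in DAH3615-MS (log2 fold change 1.01, SE 0.18, adjusted p = 0.00618). The proline-rich protein gene Cla001659 fell from 689 to 35 counts in DAH3615 and from 459 to 16 in DAH3615-MS (log2 fold change -4.51, SE 0.22, adjusted p = 0.000159). Cla003043 fell by 3.03 on the log2 scale.

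**Figure D4:**
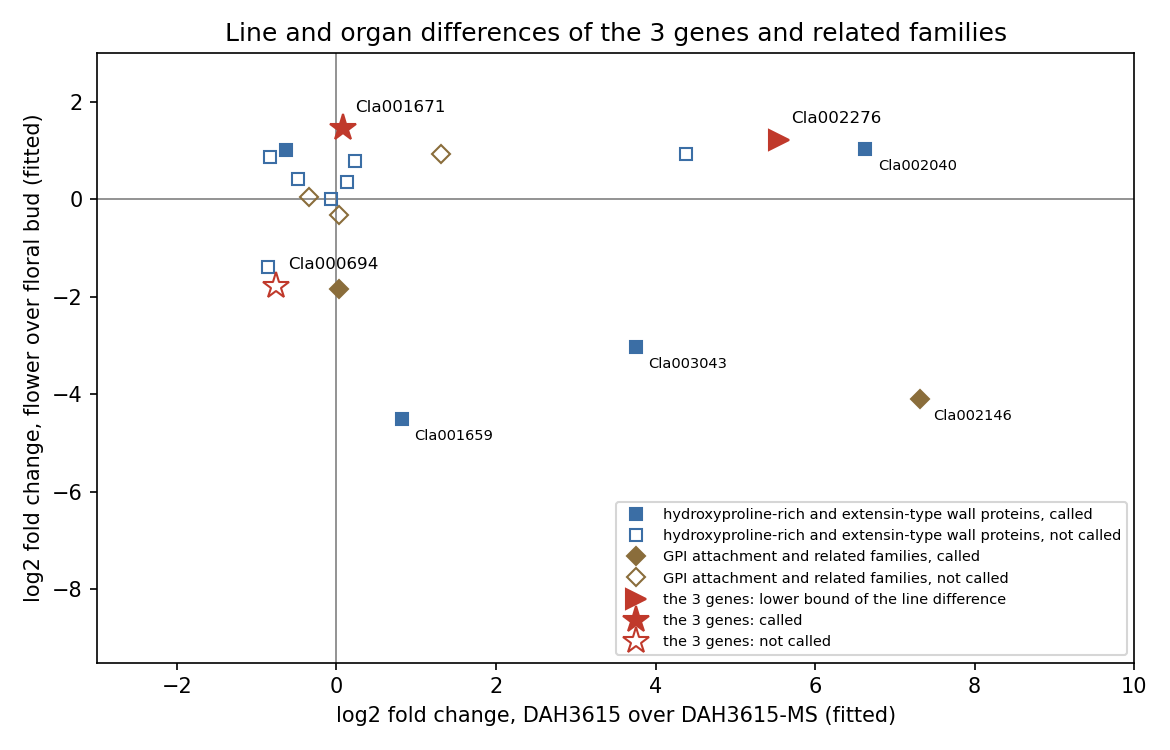
Fitted log2 fold changes of the additive model between lines (horizontal) and between organs (vertical). The 3 genes are in red and the 2 lists in blue squares and brown diamonds, filled where called for at least 1 factor. A triangle marks Cla002276 at 46.8-fold, its lower bound in floral buds at a floor of 3 counts. Its fitted line difference depends on the prior count. Cla001671 lies near 0 between lines and at 1.45 between organs, and Cla002146 and Cla003043 are higher in DAH3615 and lower in flowers.

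The genes with the most similar profile were found over the 4 libraries as the smallest root mean square difference in centred log2 CPM, among 17696 other genes with at least 10 counts in total. For Cla002276 these were Cla000987 (distance 0.074), Cla018254 (0.12) and Cla008132 (0.15), which had between 113 and 161 counts in fertile buds, between 255 and 316 in fertile flowers and 0 in DAH3615-MS. Within a distance of 0.5 of Cla002276 lay 66 genes, or 0.373%. Its values in DAH3615-MS, at 0 counts, are set by the prior count of 2. Its likeness to other genes at 0 there rests on the DAH3615 counts. For Cla001671 they were Cla003920, Cla017290 and Cla015726 (0.033 to 0.044), and 16.7% of genes lay within 0.5. For Cla000694 they were Cla004069, Cla008617 and Cla012093 (0.019 to 0.038), and 14.6% lay within 0.5. Cla004069 had only between 0 and 6 counts per library, so this likeness partly reflects the prior count of 2 added to low counts.

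Of the 2 nearest genes on each side of Cla002276, 0 were called between the lines, where 3.95% of all genes were. The closest, the undescribed Cla002275 at 3172 bp, had 10 counts in fertile buds and 44 in fertile flowers, and 5 and 10 in the sterile ones (log2 fold change 1.71, quasi-likelihood test, adjusted p = 0.12). Like Cla002276 it had its highest count in fertile flowers. On the other side Cla002277, a RING finger protein, had between 82 and 94 counts in all libraries. Around Cla001671, 3 of the 4 nearest genes had 0 counts in every library, and the fourth, the nucleoside transporter gene Cla001672, was not called between lines (adjusted p = 0.14). Around Cla000694 on chromosome 0, Cla000695 at 3835 bp and Cla000696 on the same side had 0 counts in every library. On the other side the nearest gene, Cla000693 at 23648 bp, had between 3 and 10 counts and was not called between lines (adjusted p = 0.809, quasi-likelihood test). Beyond it, at 69175 bp, the polygalacturonase gene Cla000006 had 1262 counts in fertile buds, 1108 in fertile flowers and 0 in the sterile line (adjusted p = 9.06e-06). Neighbours on this chromosome may not be neighbours in the plant.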

How the data were processed

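RNA-seq was measured in 4 libraries of total RNA. Per the labels and the study's methods, paired-end reads were trimmed by the authors (Trimmomatic), aligned to genome version 1 (Bowtie2 in TopHat2) and assigned to genes (HTSeq). The values as deposited are these counts, not normalized. Tool versions and the strand setting are not given in the sources used here, and reads shared between similar or overlapping genes were not examined.

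Genes with 0 counts in all libraries (3708) were left out and 19732 were tested. In edgeR 4.0.16 (R 4.3.3), line and organ were fitted as additive terms with TMM factors and quasi-likelihood F tests (6.43 prior and 1 residual degrees of freedom, common biological coefficient of variation 0.174). The residual degree of freedom is lost for Cla002276, which had 0 counts in both DAH3615-MS libraries. Benjamini-Hochberg adjustment ran over all genes, with calls under 0.01. The SE is the absolute log2 fold change over the square root of F. Exact tests of 2 libraries used the trended dispersion. DESeq2 1.42.0 and limma-voom (limma 3.58.1) were alternatives. Summaries used Python 3.11.15 and scipy 1.17.1.

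The genes and lists were chosen with earlier results of these data known. Named genes are the 3 genes, the lists, the 3 nearest profiles and the 2 nearest genes on each side. Descriptions came from the first 1999 rows of the study's gene table, whose columns of test results were not used. No set test was run.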

Additional observations from a re-analysis of the deposited data

How the results depend on the processing

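Over 96 alternative values for the log2 fold changes of the 3 genes, 77 kept their direction and status, called or uncalled. Of the others, 11 lost the call, 2 gained it and 6 changed sign. The 77 include differences that were uncalled in both settings. The called line difference of Cla002276 kept its call in 8 of 12 alternative fits, and the called organ difference of Cla001671 in 7 of 12. Each 12 includes the fits with 1 library left out, which cannot decide a call in either direction. The line difference of Cla002276 was 10.10 in DESeq2 and 10.77 without the organ term, both uncalled, 8.66 in limma-voom, still called, against 10.73, and between 10.02 and 11.28 with 1 library left out. These fitted values depend on the prior count. Its lower bounds became 140 in floral buds and 288 in flowers at a floor of 1 count. Its organ difference was called in the likelihood ratio test (1.21) and limma-voom (1.19). With 1 library left out it ran from -9.01 to 10.28, since 1 line is then left with a single organ. Cla001671 between lines was -0.062 with library totals, -0.0043 without the organ term and between -0.78 and 1.07 with 1 library left out. Between organs it was 1.45 without the line term (adjusted p = 0.0406, edgeR), between 1.31 and 1.60 with 1 library left out, and 1.25 in DAH3615 and 1.66 in DAH3615-MS in exact tests with the biological coefficient of variation set to 0.4, all uncalled. Cla000694 between lines ran from -2.10 to 0.27 with 1 library left out. Over all genes the likelihood ratio test called 1339 between lines and 4933 between organs against 780 and 2993, and the newer quasi-likelihood form 1411 between organs. With a single factor edgeR called 0 genes, while 1085 and 5397 had an unadjusted p under 0.05. Without 1 library it called 306 and 405 between lines without the DAH3615 floral bud and flower libraries, 0 without either DAH3615-MS library (1111 and 1019 with an unadjusted p under 0.05) and 0 between organs (3339 to 4547). With a prior count of 0.5, 2 of the 3 nearest profiles of Cla002276 and 1 of 3 of each other gene were shared. Per-kb and CPM scales gave the same order of the 3 genes. With 1 library for each condition, no paired analysis was possible beyond the organ term, which already compares the lines within organs.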

Other observations

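Over all tested genes, 899 had 0 counts in both DAH3615-MS libraries, and 145 of these were called between lines. Per kb of gene span, 2752 genes were at or above Cla002276 in both DAH3615 libraries, and 77 of them, Cla002276 included, or 2.80%, had 0 counts in both DAH3615-MS libraries. Among the 145 genes, 86 had a mean DAH3615 level per kb at or above that of Cla002276. Its ratio of flower to floral bud in DAH3615, 1.22 on the log2 scale, was reached or passed by 8 of the 145, itself included, whose median was 0.31. These genes were grouped by their counts in DAH3615-MS, so the values are a description.

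The profiles nearest to that of Cla002276 among genes with a description, chosen after the values were seen, were those of the calcium binding protein gene Cla002030 (132 counts in DAH3615 floral buds, 222 in its flowers and 0 in the sterile line) and the expansin-like gene Cla001151 (175, 219 and 0 counts). Expansins are wall-loosening proteins. For Cla001671 they were the phospholipase D gene Cla001149, with 48 counts in fertile and 47 in sterile buds and 129 and 135 in flowers, and the glycosyltransferase gene Cla001285, with 11 and 9 counts in buds and 31 and 32 in flowers.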
